A study of Caenorhabditis elegans with 2 samples.

Results

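Regions beside snoRNA genes were taken from ChIP-seq lists for the homeodomain protein CEH-9 of the nematode Caenorhabditis elegans. A region was a member when its summit, the point of strongest signal, lay within 500 bp of any of the 346 genes that the Ensembl annotation of build WBcel235 (ce11) classes as snoRNA. The rule used position alone and no signal value. It found 148 of 30000 regions in replicate 1, 143 of 30000 in replicate 3 and 80 of 10489 in the pooled list. Each list holds peaks plus background regions, not peaks alone. The deposited q-value was under 0.05 for 3048 regions of replicate 1, 24 of replicate 3 and 28 of the pooled list. Having a region therefore does not by itself mean binding by CEH-9. In all, 211 snoRNA genes had a region in at least 1 of the 3 lists, and 135 had none.

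The samples were whole L3 larvae of strain OP202, genotype unc-119(ed3) III; wgIs202, recorded as of mixed sex. The larvae expressed CEH-9 stably from a transgene, fused at its C-terminus to GFP and FLAG, and no label names the promoter that drives it. The 2 biological replicates, numbered 1 and 3, formed the only group, with no untagged or other strain analysed here. One free-text field of the labels calls both libraries input, whereas the antibody field names ceh-9, so the libraries are called CEH-9 ChIP as labelled. The lists give no read depth. With 1 group no test between samples was possible, and no p-value is given. Intervals are exact (Clopper-Pearson) 95% intervals, and they cover counting error only.

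Small nucleolar RNAs (snoRNAs) guide the chemical modification of other RNAs, above all ribosomal RNA, in the nucleolus. The box C/D class directs methylation of the ribose, and the H/ACA class directs the conversion of uridine to pseudouridine. A snoRNA can be cut out of the intron of a host gene, or it can be transcribed from a promoter of its own. In animals, many host genes encode ribosomal proteins and other parts of the translation machinery.

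The gene with the strongest member of the pooled list was ZK994.7 (WBGene00044958), a snoRNA gene of 67 bases on the plus strand of chromosome V from 8500579 to 8500645. It lies inside intron 17 of pxn-1, a peroxidasin gene on the same strand, and this intron runs from 8500348 to 8500688. The gene is printed below in capitals after the 100 bases before it, because the summits of all 3 lists fell in those bases. Counted from the first base printed, the summit lay at base 81 in replicate 1, at base 85 in replicate 3 and at base 82 in the pooled list. Sequence here and below was read from the RefSeq genome of build WBcel235, 5′ to 3′ on the strand of the gene.
ZK994.7: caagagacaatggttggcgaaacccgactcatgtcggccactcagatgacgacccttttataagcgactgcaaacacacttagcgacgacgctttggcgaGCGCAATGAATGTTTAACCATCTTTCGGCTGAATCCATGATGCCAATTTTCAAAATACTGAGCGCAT

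Other strong members lay at snoRNA genes with tRNA-like sequence in front of them. Box A and box B are the internal promoter elements of tRNA genes, which are bound by the RNA polymerase III factor TFIIIC. The 80 bases upstream of 5 such genes are shown with the matches to box A and then box B in capitals, to let the shared layout be seen.
W01C9.6: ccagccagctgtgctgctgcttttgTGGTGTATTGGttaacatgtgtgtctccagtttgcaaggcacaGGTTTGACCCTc
F55A11.10: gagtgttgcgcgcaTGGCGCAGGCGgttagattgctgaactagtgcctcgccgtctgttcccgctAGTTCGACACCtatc
C10C6.8: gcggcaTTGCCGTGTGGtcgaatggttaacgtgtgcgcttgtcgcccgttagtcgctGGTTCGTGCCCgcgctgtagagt
W03C9.9: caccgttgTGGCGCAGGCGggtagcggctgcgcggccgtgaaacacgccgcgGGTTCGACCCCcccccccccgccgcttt
T03F7.8: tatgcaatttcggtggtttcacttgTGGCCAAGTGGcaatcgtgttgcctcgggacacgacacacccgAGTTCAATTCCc
These runs are chrII:8547129-8547208 (plus strand), chrV:11782912-11782991 (plus), chrIV:11474192-11474271 (minus), chrII:11960818-11960897 (plus) and chrV:11314178-11314257 (plus), in the order printed.

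The first question was how often snoRNA genes had a region beside them. In replicate 1, 142 of 346 genes did (41.0%, 95% interval 35.8 to 46.4), in replicate 3, 132 did (38.2%, 33.0 to 43.5), and in the pooled list, 81 did (23.4%, 19.0 to 28.2). Among all nuclear genes the share was 46.2%, 42.5% and 20.4%, but long genes give a summit more room. With an equal window, 500 bp to either side of the 5′ end of the gene, snoRNA genes had a region in 40.2% of cases in replicate 1, 34.1% in replicate 3 and 21.7% in the pooled list. The shares of all nuclear genes were then 29.6%, 25.2% and 10.3%.

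The tRNA genes, by the same equal window, had 39.5%, 43.1% and 19.8%. The intervals of snoRNA and tRNA genes overlapped in each list, though in replicate 3 barely, with snoRNA genes reaching 39.4% and tRNA genes beginning at 39.2%. The snRNA genes had 34.1%, 24.8% and 14.0%, and the miRNA genes 31.0%, 39.5% and 17.2%. Genes of the general ncRNA class had 35.9%, 35.2% and 16.4%. Among these 5 classes snoRNA genes had the highest share in replicate 1 and in the pooled list, and in replicate 3 they were below the tRNA, miRNA and ncRNA classes. No test of these differences was made. The windows around all snoRNA genes covered 0.375% of the nuclear genome and held 0.493% of the regions of replicate 1, 0.477% of those of replicate 3 and 0.763% of the pooled regions. That is 1.32, 1.27 and 2.03 times the number given by length alone.

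**Figure D1:**
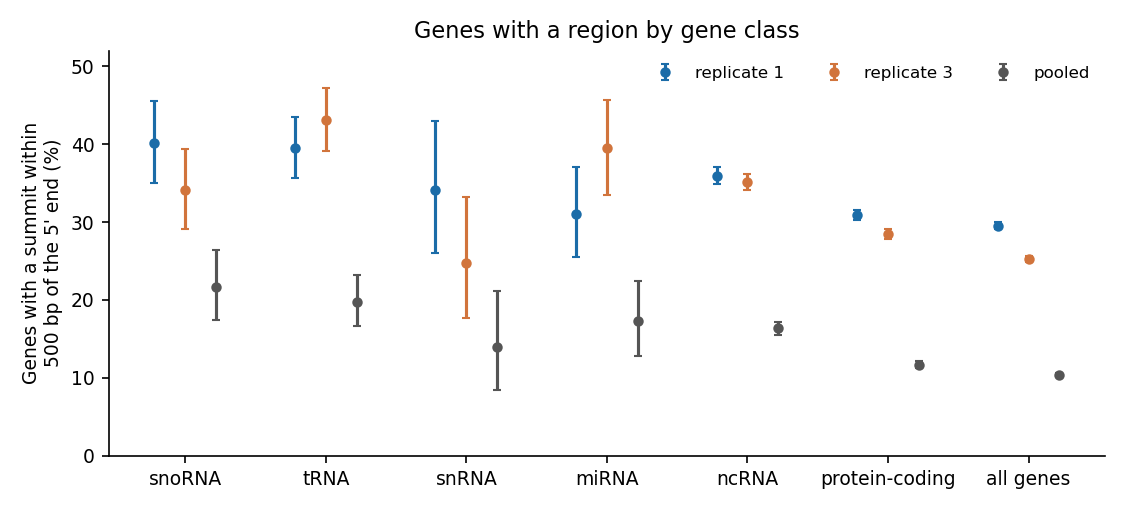
Share of genes (%, vertical axis) with a summit within 500 bp of the 5′ end, by gene class (horizontal axis), in replicate 1, replicate 3 and the pooled list; points are shares and bars exact 95% intervals. The snoRNA genes stood at 40.2%, 34.1% and 21.7%, above the 29.6%, 25.2% and 10.3% of all genes, which include the piRNA genes. In replicate 3 the tRNA genes were higher, at 43.1%.

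Signal values came next. Column 7 of the lists holds a signal value with no stated unit, so it was turned into a percentile within its list, with the strongest region near 100 and the median of all regions at 50. The members had a median percentile of 62.6 in replicate 1, 57.0 in replicate 3 and 53.1 in the pooled list. Regions beside tRNA genes had 62.5, 52.5 and 60.3. Those beside snRNA genes had 55.5, 52.2 and 80.8, and those beside miRNA genes 61.7, 51.1 and 44.8. The members were thus close to the tRNA and miRNA regions in replicate 1, and in the pooled list they were below the tRNA and snRNA regions. In replicate 3 they had the highest median of these classes. These differences were not tested. The mean of the replicate medians of the members was 59.8 ± 3.98 (SD, n = 2). In signal values, members of replicate 1 ran from 3.99 to 25.03 with a median of 6.67, those of replicate 3 from 4.42 to 20.5 with a median of 6.49, and pooled members from 11.9 to 38.7 with a median of 14.3. The medians of all regions were 5.91, 6.21 and 14.1.

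The strongest 10% of replicate 1 held 36 members, or 24.3% of them (95% interval 17.7 to 32.1), against 10% of all regions. In replicate 3 the count was 18, or 12.6% (7.63 to 19.2), and in the pooled list 15, or 18.8% (10.9 to 29.0), against 10% in each. The interval of replicate 1 lay above 10%, that of the pooled list began just above it, and that of replicate 3 included it. The 36 members of replicate 1 in the strongest 10% were also its only members with the authors' q-value under 0.05, so this is no separate result. By that measure 24.3% of the members of replicate 1 stood under 0.05, where 10.2% of all its regions did. Only 1 member each of replicate 3 and of the pooled list did so, both at ZK994.7, where 0.08% and 0.267% of all regions passed. The tRNA genes had 17.7%, 11.4% and 29.2% of their regions in the strongest 10%, and the miRNA genes 11.8%, 19.0% and 16.3%. Members in the last 50 bp inside the limit numbered 8, 9 and 8, with median percentiles of 57.5, 65.4 and 48.6. Regions in the first 50 bp outside it numbered 8, 15 and 5, with medians of 37.2, 49.1 and 44.7.

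**Figure D2:**
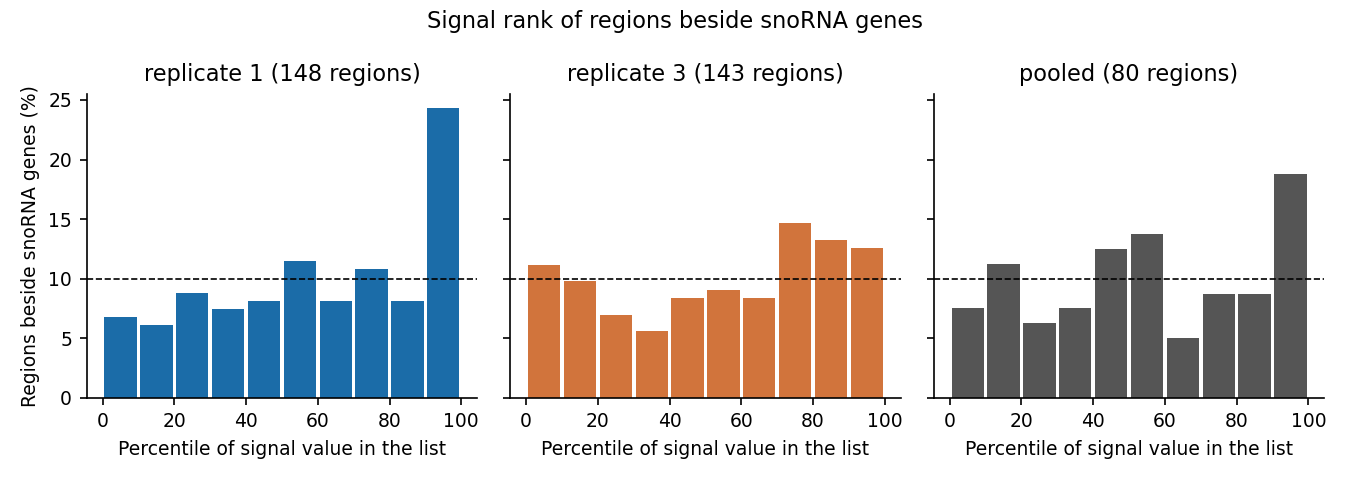
Share of member regions (%, vertical axis) in each step of 10 percentiles of the signal value (horizontal axis; 100 is strongest) for replicate 1, replicate 3 and the pooled list; the dashed line is the 10% that all regions have. The tallest bar is the strongest 10% of replicate 1, with 24.3%, whereas replicate 3 has 12.6% there.

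ZK994.7 ranked high in every list. Its region had a signal value of 14.8 and rank 433 in replicate 1 (q = 0.00578), 20.5 and rank 10 in replicate 3 (q = 0.0233), and 38.7 and rank 12 in the pooled list (q = 0.0189). The summits of the replicates lay 4 bp apart, 20 bp and 16 bp upstream of the first base of the gene. The pooled region, chrV:8500402-8500717, was the only one of the authors' 45 reproducible peaks whose summit lay within 500 bp of a snoRNA gene; 0.429% of pooled regions are in that set. The nearest tRNA gene was 943 bp away.

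Only 3 snoRNA genes had a region in the strongest 10% of both replicates, ZK994.7 and a pair of others. Of the 346 genes, 37 had such a region in replicate 1 and 19 in replicate 3. The overlap that unrelated lists would give was not computed, nor was the share of all genes. The count of 3 is therefore a description and does not by itself set these genes apart. W01C9.6 (chromosome II, 8547209 to 8547338, plus strand) overlaps the globin family gene glb-27, which runs on the opposite strand. It ranked 416 in replicate 1, 2690 in replicate 3 and 133 in the pooled list, with signal values of 14.9, 9.87 and 26.2, and the summits lay 30, 100 and 96 bp past its first base. The q-values of these regions were 0.00602, 0.562 and 0.268. C26C6.13, on chromosome I, is intergenic, with goa-1, a G protein alpha subunit gene, the nearest coding gene at 3115 bp. It ranked 429, 1522 and 217 (14.8, 10.9 and 24.3), with summits 652, 616 and 649 bp past its first base, beyond its 3′ end. Here the q-values were 0.00583, 0.515 and 0.363.

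No other snoRNA gene was in the strongest 10% of both replicates. The strongest of replicate 1 was at W06H8.17, an intergenic gene on chromosome V, with a signal value of 25.03 at rank 40. Its region in replicate 3 had 6.48 at rank 12961, close to the middle of that list. C14C10.8, in an intron of ril-2, ranked 182 and 8340. F07A11.15, in an intron of din-1 on the opposite strand, ranked 196 and 26383; din-1 encodes a partner of the nuclear receptor DAF-12. M7.15 (rank 226) and C08D8.3 (307) in replicate 1 had no region in replicate 3. F47G4.9, an intergenic gene on chromosome I, ranked 194 and 8600, and C46C2.8, intergenic on chromosome IV, ranked 328 and 19274. T03F7.8 (346), in an intron of the cuticlin-like gene cutl-18 on the opposite strand, and C51F7.3 (393), in an intron of frm-7, a FERM domain gene, also had no region in replicate 3.

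In replicate 3 the next member after ZK994.7 was at C10C6.8, with a signal value of 16.5 at rank 59 (q = 0.145). C10C6.8 lies in intron 7 of catp-8, a P-type ATPase gene, and it had no region in replicate 1 or in the pooled list. C05H8.3, in an intron of the kinase gene ckk-1 on the opposite strand, had 15.2 at rank 114 in replicate 3, 7.22 at rank 9065 in replicate 1 and 25.3 at rank 159 in the pooled list. The q-values of these regions were 0.251, 0.244 and 0.344. C27H5.9, in an intron of pdl-1 on the opposite strand, ranked 578 in replicate 3 and 28591 in replicate 1. Y38E10A.32 (rank 770), K02C4.8 (1108), Y43F8C.22 (1243) and ZK632.18 (1363) had no region in replicate 1. The last of these lies in an intron of cnx-1, which encodes the chaperone calnexin. H06I04.9 ranked 1359 in replicate 3 and 4777 in replicate 1. Its host ubl-1 encodes a ubiquitin-like protein fused to a ribosomal protein. C07A9.14, in an intron of the sodium-calcium exchanger gene ncx-7 on the opposite strand, ranked 974 and 14417. Further genes among the 10 strongest of the pooled list were B0334.12 (rank 337), in an intron of the potassium channel gene twk-5, and C04G6.12 (394), in an intron of mpk-2, a MAP kinase family gene, both on the strand opposite to the host.

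snoRNA genes inside introns were then set against those between genes. A gene was intronic when it lay whole in an intron of a protein-coding gene on its own strand (150 genes), intergenic when it overlapped no coding gene or pseudogene (122 genes), and was otherwise put in a class of remaining genes (74 genes). Intronic genes had a region in 40.7% of cases in replicate 1, 42.0% in replicate 3 and 24.7% in the pooled list. Intergenic genes had one in 40.2%, 32.0% and 19.7%. The replicate means were 41.3% ± 0.943 and 36.1% ± 5.80 (SD, n = 2), a difference of 5.27 percentage points, smaller than the SD of the intergenic share. The intervals of both classes overlapped in every list.

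By signal, intronic members had median percentiles of 67.1, 60.4 and 50.3, and intergenic members 55.3, 53.8 and 55.2, so the order of the classes differed between the replicates and the pooled list. In the strongest 10%, intronic members had 15 of 64 regions in replicate 1 and 7 of 63 in replicate 3. Intergenic members had 15 of 53 and 5 of 44. Within the class of 74 remaining genes, 28 lay in an intron on the strand opposite to the coding gene, a split made after the values were seen. Of these, 57.1% (95% interval 37.2 to 75.5) had a region in replicate 1, 46.4% (27.5 to 66.1) in replicate 3 and 39.3% (21.5 to 59.4) in the pooled list, with median percentiles of 73.7, 78.0 and 69.6. Their intervals overlapped those of the intronic and the intergenic genes in each list.

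**Figure D3:**
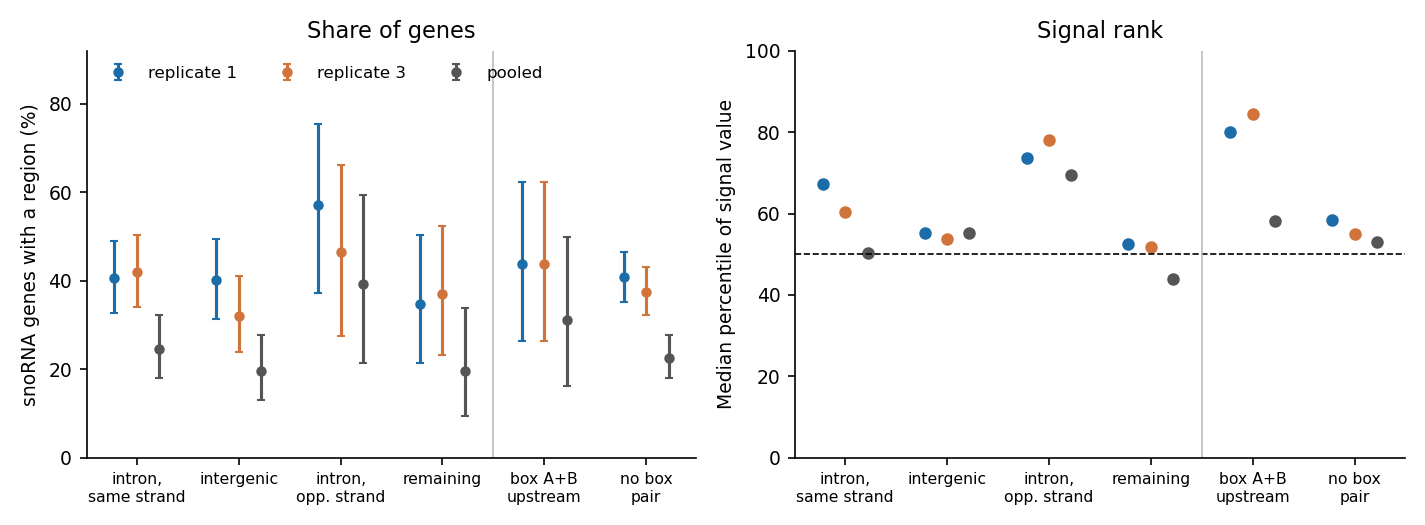
Left, share of snoRNA genes with a region (%, points with exact 95% intervals); right, median percentile of the signal value of their regions, by place of the gene and by presence of a box A and box B pair upstream, for replicate 1, replicate 3 and the pooled list. Intronic and intergenic genes overlap in share, and regions at genes with a box pair have medians of 79.9 and 84.6 in the replicates but 58.2 in the pooled list.

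The 150 intronic snoRNA genes had 130 hosts, with gei-3 and nhr-27, which both hold C52G5.13 in an intron, counted together. Of these hosts, 30 carried a snoRNA gene with a region in both replicates. Ribosomal protein genes, which encode the protein part of the ribosome, made up 14 hosts with 21 snoRNA genes. Of these 21, 8 had a region in replicate 1 (38.1%), 9 in replicate 3 (42.9%) and 6 in the pooled list (28.6%), against 41.1%, 41.9% and 24.0% of the 129 snoRNA genes in other hosts. In replicate 1, 4 of 10 regions at ribosomal protein hosts were in the strongest 10%, against 11 of 54 at other hosts. In replicate 3, 1 of 7 was, against 6 of 56, and in the pooled list 2 of 4, against 4 of 32. No test of these small counts was made. Of the 21 genes in ribosomal protein hosts, 5 had a region in both replicates (23.8%), against 20.2% in other hosts. These 5 lay in rpl-4, rpl-15, rpl-26, rps-4 and ubl-1.

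Of the 16 hosts with more than 1 intronic snoRNA gene, ssl-1, which encodes an ATPase of the SWI/SNF type, was the only one with more than 1 such gene that had a region in both replicates. Both of its snoRNA genes, Y111B2A.35 and Y111B2A.36, shared 1 weak region of replicate 3, at rank 28061. The 3 snoRNA genes of top-2, a topoisomerase II gene, shared 1 region in replicate 3 (rank 8666) and had none in replicate 1. The 3 of rpl-6 likewise shared 1 in replicate 3 (rank 15910) and had none in replicate 1. The 4 snoRNA genes inside nol-56, which encodes a core protein of box C/D particles, had no region in any list. Neighbouring genes that share a region are not independent, and 6, 8 and 4 members were near more than 1 snoRNA gene.

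The proteins that package snoRNAs were looked up by a list of 11 genes, all found in the annotation. They hold the core proteins of both snoRNA classes and assembly factors. With an equal window at the 5′ end, 4 had a region in replicate 1, 3 in replicate 3, 2 in the pooled list and 2 in both replicates, where 29.6%, 25.2%, 10.3% and 9.68% of all genes did. fib-1, which encodes the methyltransferase fibrillarin, had ranks of 1779 in replicate 1, 21919 in replicate 3 and 4863 in the pooled list. dao-5, a nucleolar phosphoprotein gene, had 18805 and 11420.5 in the replicates. nol-58, which encodes another core protein of box C/D particles, had a region in the pooled list alone (rank 5139). garr-1 (20450) and Y48A6B.3 (20148.5) had one in replicate 1 alone and nola-3 (15860) in replicate 3 alone, and these 3 encode core proteins of H/ACA particles. No region lay at the starts of nol-56, snu-13, dkc-1, ruvb-1 or ruvb-2 in any list.

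Sequence features that the rule had not used were examined next. In the 150 bases before the gene, 32 of 346 snoRNA genes (9.25%) had a match to box A followed by a match to box B that began 30 to 75 bp after it. The consensus sequences of both boxes, as known from tRNA genes, were searched on the strand of the gene with up to 2 mismatches in each. The same pair was found before 0.125% of protein-coding genes, 0.163% of tRNA genes, 1.53% of miRNA genes, 0.374% of genes of the ncRNA class and 0 of 129 snRNA genes. The pair was about as frequent before intronic (14 of 150), intergenic (12 of 122) and the remaining snoRNA genes (6 of 74). The search was chosen after sequences of strong members had been read, and a match is not a measured promoter.

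Genes with a box pair had a region as often as the others. Their share was 43.8% in both replicates and 31.3% in the pooled list, against 40.8%, 37.6% and 22.6% of the 314 genes without it. Because the search was chosen from strong members, the ranks of regions beside such genes are a description and no support for a difference. Their median percentile was 79.9 (15 regions) in replicate 1 and 84.6 (17 regions) in replicate 3, against 58.5 and 55.02 for regions beside the remaining genes. In the strongest 10% they had 7 of 15 and 5 of 17 regions, against 29 of 134 and 14 of 127. In the pooled list the medians were 58.2 and 53.1, and 2 of 11 and 13 of 70 regions were in the strongest 10%. Of the genes with a box pair, only W01C9.6 was in the strongest 10% of both replicates. Such overlap was also rare among all regions. Of those in the strongest 10% of replicate 1 and replicate 3, 5.63% and 5.67% had a match within 200 bp in the strongest 10% of the other. That count is by region and not by gene.

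Of the genes printed above, F55A11.10, in an intron of F55A11.6, had ranks of 566, 3976 and 637 in replicate 1, replicate 3 and the pooled list. W03C9.9, an intergenic gene, ranked 451 in replicate 1 and 1221 in the pooled list. Of the 7 regions beside a box pair in the strongest 10% of replicate 1, the summit at W03C9.9 lay 13 bp past the centre of box B and that at F32E10.10 (rank 599) 5 bp before it. Those at W01C9.6 and T03F7.8 lay 37 bp past and 37 bp before it. The summits at K11C4.6, F55A11.10 and C46C2.8 were farther away, at 81 bp before, 112 bp past and 236 bp before it, so no common position was seen. At C10C6.8 the summit of replicate 3 lay 144 bp before the centre of its box B. A tRNA gene lay within 500 bp of 1 of 148 members in replicate 1 (0.676%, 95% interval 0.0171 to 3.71), of 0 of 143 in replicate 3 and of 0 of 80 in the pooled list. The share of all regions was 0.88%, 0.877% and 1.08%, so no difference was detectable.

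Ends typical of the snoRNA classes were looked for as well. A box C match (TGATGA, 1 mismatch allowed, in the first 20 bases) together with box D (CTGA in the last 15 bases) was present in 43 genes, and in 1 of 346 windows of the same length directly upstream. The letters ACA before the last 3 bases were found in 58 genes and in 6 such windows. Genes with box C and box D had a region in 41.9%, 39.5% and 25.6% of cases, and genes with ACA alone in 41.1%, 41.1% and 23.2%. Those with neither had 40.9%, 37.2% and 23.1%. The shares were thus alike by type. Median percentiles were 88.4, 64.9 and 73.1 beside genes with box C and box D, 77.2, 64.3 and 57.7 beside those with ACA alone and 56.05, 53.7 and 49.9 beside those with neither.

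Short words were searched, on either strand, in the 100 bp to each side of every summit. The homeodomain words TAATTA and TAATTG were present at 18.2% of members in replicate 1 (95% interval 12.4 to 25.4), 20.3% in replicate 3 (14.0 to 27.8) and 18.8% in the pooled list (10.9 to 29.0). All regions had 22.2%, 19.4% and 18.3%, within each interval. The purine words GAGAAAGA and GAGAGAGA were at 6.76%, 1.40% and 5% of members and at 4.20%, 3.84% and 5.85% of all regions. TGATGA, which is also the box C sequence of snoRNAs, was at 23.6%, 18.2% and 28.8% of members against 16.2%, 16.5% and 16.7% of all regions. The GATA factor word TGATAA, which shares its first letters, was at 15.5%, 12.6% and 17.5% against 17.5%, 15.8% and 15.1%. The median GC content was 40.3%, 38.8% and 40.8% at members and 36.8%, 38.8% and 39.8% in all regions.

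Summits were placed along the snoRNA genes by strand. In replicate 1, 80 of 148 lay upstream of the nearest gene (54.1%, 95% interval 45.7 to 62.3), 18 inside it and 50 downstream, where window length gives 44.0% to each side. In replicate 3 the counts were 61 upstream (42.7%, 34.4 to 51.2), 23 inside and 59 downstream, and in the pooled list 39, 16 and 25. In the 100 bp directly upstream of the 5′ end lay 32 members of replicate 1 (21.6%, 15.3 to 29.1), 14 of replicate 3 (9.79%, 5.46 to 15.9) and 15 pooled members (18.8%, 10.9 to 29.0), where window length gives 8.79%. The concentration before the gene was seen in replicate 1 and in the pooled list, which contains it, and not in replicate 3. Of the members in these 100 bp, 13 of 32 in replicate 1, 3 of 14 in replicate 3 and 3 of 15 in the pooled list were in the strongest 10%. Of all members, 24.3%, 12.6% and 18.8% were. Among intergenic genes, 36 of 53 members of replicate 1 and 18 of 44 of replicate 3 were upstream. A coding gene start lay within 500 bp of 25% of members in replicate 1 and 21.0% in replicate 3, against 20.8% and 19.5% of all regions. A gene of the ncRNA class lay within 500 bp of 24.3% and 21.0% of members, against 8.56% and 8.48% of all regions, and the part of these neighbours in the result was not tested.

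**Figure D4:**
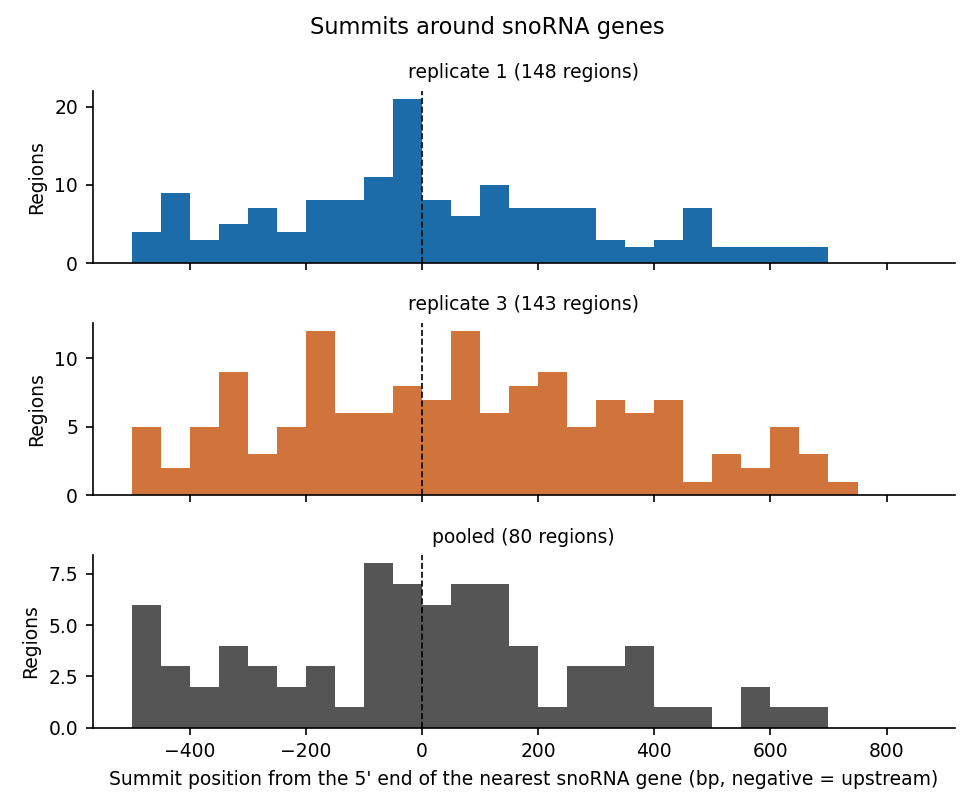
Number of member regions (vertical axis) by position of the summit from the 5′ end of the nearest snoRNA gene (bp, horizontal axis; negative values are upstream, dashed line at the first base) in replicate 1, replicate 3 and the pooled list. Replicate 1 has 32 members in the 100 bp upstream of the first base, and replicate 3 has 14.

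By chromosome, the 33 snoRNA genes on X had a region in both replicates in 1 case, F55F1.11 (3.03%, 95% interval 0.0767 to 15.8), the lowest share of the 6 chromosomes. Chromosome II had the highest, 18 of 71 (25.4%, 15.8 to 37.1), close to chromosome I with 18 of 74 (24.3%). The shares of all genes by chromosome are not given here, so these values do not set snoRNA genes apart from other genes. None of the 7, 12 and 4 members on X was in the strongest 10% of its list. With 3 counts taken as the limit behind a count of 0, shares of up to 42.9%, 25% and 75% were allowed. These limits are not exact intervals and are rough for so few regions. A difference from the 10.4%, 9.93% and 11.6% of all X regions was not detectable.

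The replicates were compared last. Of the 148 members of replicate 1, 43 had a region of replicate 3 within 200 bp (29.1%, 95% interval 21.9 to 37.1), against 21.6% of all regions of that list. Of the 143 members of replicate 3, 40 had one in replicate 1 (28.0%, 20.8 to 36.1), against 22.1%. The interval for replicate 1 began just above the share of all regions, and that for replicate 3 included it. Among the 36 members in the strongest 10% of replicate 1, 13 were matched (36.1%, 20.8 to 53.8), against 30.2% of all regions of that strength. Among the 18 of replicate 3, 8 were (44.4%, 21.5 to 69.2), against 27.9%. Matches within the strongest 10% of both lists numbered 3, which is 8.33% of the 36 (1.75 to 22.5) and 16.7% of the 18 (3.58 to 41.4), against 5.63% and 5.67% of all regions of that strength, and both intervals included the share of all regions. Of the 80 pooled members, 59 had a region within 200 bp in replicate 1 (73.8%) and 52 in replicate 3 (65.0%), against 70% and 66.2% of all pooled regions. Both replicate lists were called against the same control alignment.

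By gene, 66 snoRNA genes had a region in both replicates (19.1%, 95% interval 15.1 to 23.6), against 26.8% of all genes. The product of the shares of the single replicates gives 54.2 snoRNA genes. For all genes the single shares were 46.2% and 42.5%, and their product was not computed. The value of 54.2 therefore does not set snoRNA genes apart. With the equal window at the 5′ end the shares were 16.2% (12.5 to 20.5) and 9.68%. By that window 19.1% of tRNA genes, 16.5% of miRNA genes, 15.7% of ncRNA genes and 13.2% of snRNA genes had a region in both. The share of snoRNA genes was thus within the range of these classes. Of the 66 genes, 31 were intronic, 18 intergenic and 17 of the remaining class, which is 20.7%, 14.8% and 23.0% of each class. The summits nearest to each other in the replicates were a median of 130.5 bp apart, and 41 of the 66 pairs were within 200 bp. Both summits lay within 500 bp of the same gene by the rule, which limits their distance. No such distance was computed for other genes, so these values do not show agreement of position. The percentiles of these genes in replicate 1 and replicate 3 gave Spearman's rho of 0.0296 and Pearson's r of 0.00424 over 66 genes, some of which share a region. In replicate 1, 18 of the 66 were in the strongest 10%, and in replicate 3, 11 were. Of these, 3 were in the strongest 10% of both.

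**Figure D5:**
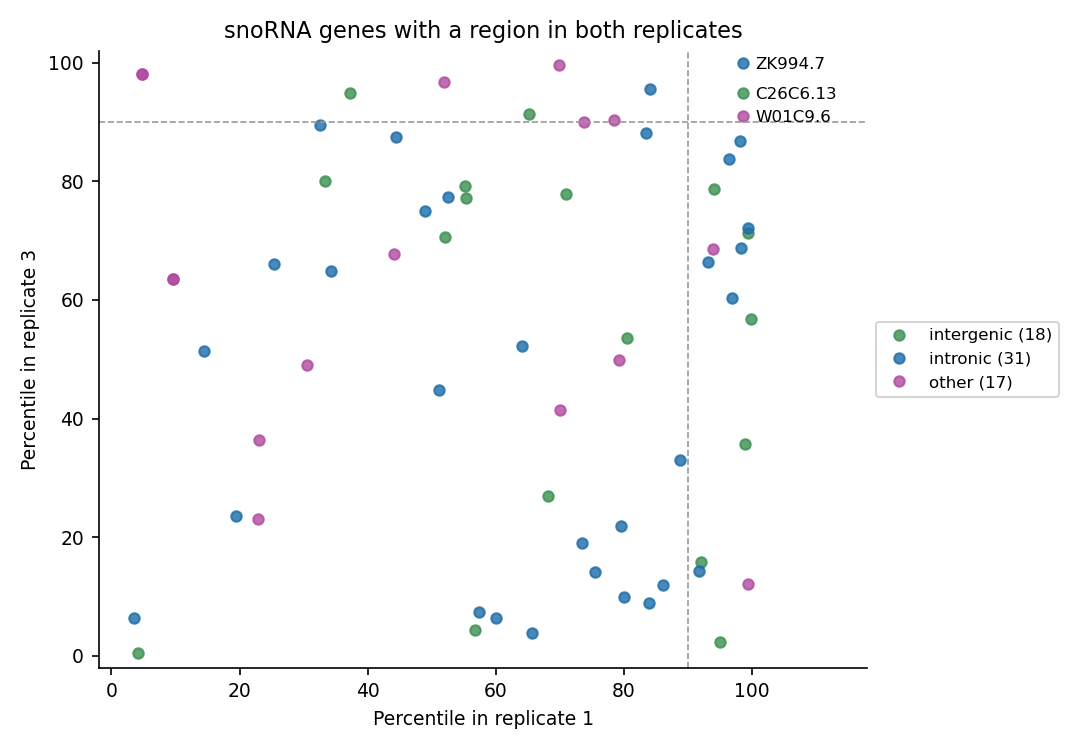
Percentile of the strongest member region at each of the 66 snoRNA genes with a region in both replicates, in replicate 1 (horizontal axis) and replicate 3 (vertical axis); colours give the place of the gene and dashed lines mark the percentile 90. ZK994.7, W01C9.6 and C26C6.13 are the 3 genes above it in both, and the points show no common trend (Spearman's rho 0.0296).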

How the data were processed

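ChIP-seq peak lists of 2 biological replicates and of their pool were used on build ce11. Each replicate's alignment, and the pool of both, had been searched by the authors for peaks plus background regions relative to a control, and a reproducible set had been kept by irreproducible discovery rate, per the deposited file descriptions. The aligner, caller and threshold used were not given in the sources used here. The deposited signal value (column 7) has no stated unit and only ranked regions within a list. Column 9 is the −log10 of a q-value, as deposited. Read depth is unknown. The ce10 lists were not used.

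Genes came from Ensembl release 115. Summits were joined to genes within 500 bp, and replicate summits were matched within 200 bp, in Python 3.11.15 with numpy 2.4.6, pandas 2.3.3 and scipy 1.17.1. Tied signal values shared a mean rank. The distance, matching and sequence steps were tested on simulated data with known answers.

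The members, lists and comparisons were chosen with earlier results of these data known. Named genes were those of the 10 strongest members of each list, those in the strongest 10% of both replicates, their hosts, hosts with more than 1 snoRNA gene in both replicates, and the snoRNA protein list. Other genes were named after their values were seen. Alternatives were other distances, rank definitions, classes of intron and matching distances, and each replicate left out.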

Additional observations from a re-analysis of the deposited data

How the results depend on the processing

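Counts of members depend on the distance. At 200 bp there were 96, 85 and 49 regions in replicate 1, replicate 3 and the pooled list, and at 1000 bp 266, 252 and 121, while counting any overlap of a region with the window kept each count within 1.5 times. The mean share of snoRNA genes with a region, 39.6%, became 25.1% at 200 bp and 60.5% at 1000 bp, and 38.2% to 41.0% with a replicate left out. The mean median percentile of 59.8 was 54.4 at 1000 bp, and 57.0 to 62.6 with a replicate left out. The share of members over the share of all regions among the strongest, 2.43 in replicate 1, was 3.51 in its strongest 5% and 1.62 in its strongest 20%. It was 1.26 and 1.88 in replicate 3 and the pooled list. The intronic share exceeded the intergenic one by 10.03 percentage points without replicate 1 and by 0.503 without replicate 3, so the difference rests on replicate 3. Matched members were 17.6% and 17.5% within 100 bp and 44.6% and 44.8% within 500 bp, for replicate 1 and replicate 3 in turn. Allowing 3 mismatches in box A, an alternative chosen after seeing the data, raised the genes with a box pair from 32 to 45. No paired analysis was possible because there was only 1 group. Unknown read depth limits any reading of a gene without a region.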
